A study of Homo sapiens with 12 samples.

Results

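The mitochondrial respiratory chain was followed through 94 protein-coding genes, 81 encoded in the nucleus and 13 in mitochondrial DNA, of 58735 gene identifiers counted. Members were taken by symbol, as subunits of complexes I to V with at least 120 counts summed over 12 libraries. The symbol rule matched 104 genes, and the 10 below the minimum included the heart and muscle isoforms COX6A2, at 0 counts, and COX7A1, at 16 counts, and the lung isoform COX4I2, at 0 counts. NDUFV2, with 159 counts, lay just inside the minimum and NDUFA7, with 107 counts, just outside it. All 94 members passed the filter on low counts that left 15060 genes for testing.

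Total RNA was taken from cultures of OCI-AML2. This established line derives from human acute myeloid leukemia and carries a rearranged KMT2A (MLL) gene. Cells had received by lentivirus one of 2 guides against KDM6A (sgUTX_2 or sgUTX_4), which encodes UTX, a demethylase of H3K27, or the control guide sgLuc, named for luciferase. Both kinds of cells were grown for 6 days with 1 µM SGC0946 or with its vehicle DMSO. SGC0946 blocks DOT1L, the enzyme that methylates H3K79. Each combination of guide and treatment had 2 libraries, so each treatment held 4 sgUTX and 2 sgLuc libraries. The labels call the sgUTX cells knockout and name no clones. Whether the 2 libraries of a combination stem from separate cultures is not stated, and the spread behind each p-value may therefore be technical.

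The respiratory chain moves electrons from NADH (complex I) and succinate (complex II) through coenzyme Q, complex III and cytochrome c to oxygen at complex IV. Complexes I, III and IV pump protons across the inner mitochondrial membrane, and complex V, the ATP synthase, uses the gradient to make ATP. Mitochondrial DNA encodes core membrane subunits of complexes I, III, IV and V, transcribed as long precursors that are cut into single mRNAs, while the nucleus encodes every subunit of complex II and the remaining subunits of the other complexes. Acute myeloid leukemia cells are known for their dependence on oxidative phosphorylation.

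KDM6A mRNA was 14.4 to 15.9 CPM (counts scaled to a fixed library total) in the libraries labelled sgUTX_2 and 43.1 to 49.4 CPM in those labelled sgUTX_4, against 27.9 to 35.0 CPM in sgLuc libraries. The libraries labelled sgUTX_4 thus held more KDM6A mRNA than the control, so directions for sgUTX rest on the labels. Total counts ranged from 15480493 to 23262141 per library. Of the 7 myeloid markers, all were detected in every library (SPI1 at 351 to 470 CPM), and the erythroid genes HBA1 and HBB and the B-cell gene MS4A1 had 0 counts. Cytoplasmic ribosomal protein genes took 10.2% to 11.01% of counts in sgUTX DMSO libraries, against 16.4% and 17.6% in sgLuc DMSO libraries. With SGC0946 they took 10.1% to 11.1% in sgUTX libraries and 11.97% and 12.17% in sgLuc libraries. The scaling (TMM) factors followed these shares, at 1.03 to 1.07 in sgUTX libraries, 0.888 and 0.854 in sgLuc DMSO libraries and 0.924 and 0.934 in sgLuc SGC0946 libraries. CPM values below are scaled by these factors. With library size alone, the median log2 fold change of all genes for sgUTX over sgLuc moved to 0.26 in DMSO and to 0.20 in SGC0946, against -0.01 and 0.01 with TMM. The part of this shift in the results was not tested.

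In the c subunit of ATP synthase, whose ring turns as protons pass, related genes moved in opposite directions. It is made by 3 genes, ATP5MC1, ATP5MC2 and ATP5MC3, whose cleaved-off import signals differ and whose mature protein is the same. The last 120 coding bases of each, with the stop codon, are printed to show how far reads can tell these genes apart. Capitals mark the 31 positions at which the 3 genes are not all the same.
ATP5MC1: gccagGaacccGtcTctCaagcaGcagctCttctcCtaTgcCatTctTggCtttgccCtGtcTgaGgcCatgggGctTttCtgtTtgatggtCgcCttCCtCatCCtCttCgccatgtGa
ATP5MC2: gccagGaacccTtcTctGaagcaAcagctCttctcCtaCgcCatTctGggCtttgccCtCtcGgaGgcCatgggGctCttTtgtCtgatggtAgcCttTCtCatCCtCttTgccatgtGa
ATP5MC3: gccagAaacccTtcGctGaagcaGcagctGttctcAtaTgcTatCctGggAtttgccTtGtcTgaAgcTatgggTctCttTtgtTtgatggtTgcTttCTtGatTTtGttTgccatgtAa
These stretches lie in GENCODE 29 (GRCh38) within chr17:48895330-48895769 on the plus strand (ATP5MC1-201), chr12:53665314-53669152 on the minus strand (ATP5MC2-204) and chr2:175178288-175179061 on the minus strand (ATP5MC3-203), each over 2 exons. Over the last 228 coding bases ATP5MC1 and ATP5MC2 were 89.0% identical, and ATP5MC3 was 81.1% identical to each of them. The longest run shared by any pair over the whole of these transcripts was 17 bases, against a read length of 150 bases.

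The 120 bases before the annotated start (RefSeq, GRCh38.p14) are shown for the 2 family members that changed, with the matches of 3 motifs searched on both strands in capitals: GCATGCG, the core of sites of NRF1, a regulator of respiratory genes, CCGGAAG, an ETS-type site, and CCAAT. ATP5MC1 (chr17:48892667-48892786, plus strand) held 3 CCAAT matches. The second of 3 listed starts of ATP5MC2 (chr12:53676084-53676203, minus strand) held 2 overlapping GCATGCG matches, 1 on each strand. It is shown for holding the most matches, the first listed start having 0 matches of any motif and the third 1 match of GCATGCG.
ATP5MC1: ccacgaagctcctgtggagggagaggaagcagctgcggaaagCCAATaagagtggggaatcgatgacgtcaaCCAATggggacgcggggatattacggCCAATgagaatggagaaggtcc
ATP5MC2: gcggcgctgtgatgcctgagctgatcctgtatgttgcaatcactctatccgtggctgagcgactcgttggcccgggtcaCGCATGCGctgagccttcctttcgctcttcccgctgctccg
Of the 81 nuclear members, 62 matched a promoter entry. The GCATGCG motif was found in 11.3% of them, against 2.83% of 27305 genes, and CCGGAAG in 24.2% against 7.5%. CCAAT was found in 22.6% of members, against 24.29% of genes. The 27305 genes were all those with a promoter entry, not only genes tested here, so members were not compared with other expressed genes.

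In DMSO, ATP5MC2 (chr12:53632726-53677408) had 251, 238, 255 and 244 CPM in the sgUTX libraries, against 463 and 485 CPM in the sgLuc libraries. ATP5MC1 (chr17:48892765-48895871) had 86.7, 80.2, 98.0 and 86.9 CPM in the sgUTX libraries, against 47.6 and 46.7 CPM in the sgLuc libraries. ATP5MC3 (chr2:175176258-175184607) had 273, 234, 325 and 271 CPM in the sgUTX libraries, against 266 and 276 CPM in the sgLuc libraries. The groups did not overlap for ATP5MC1 and ATP5MC2, and overlapped for ATP5MC3. By edgeR's quasi-likelihood test ATP5MC2 fell by 0.94 ± 0.06 on the log2 scale (SE, adjusted p = 7.33e-12) and ATP5MC1 rose by 0.90 ± 0.08 (adjusted p = 3.04e-09), while ATP5MC3 differed by 0.02 ± 0.12 (adjusted p = 0.879). Both calls held when any 1 library was left out and with library size alone.

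With SGC0946, ATP5MC2 had 212, 243, 233 and 232 CPM in sgUTX libraries, against 262 and 244 CPM in sgLuc libraries. The sgLuc level had come close to that of sgUTX cells, and the difference did not pass the test (log2 -0.14, adjusted p = 0.0599, edgeR). In sgLuc cells the inhibitor lowered ATP5MC2 by 0.91 ± 0.07 on the log2 scale (adjusted p = 6.12e-10, edgeR), while in sgUTX cells the change was -0.11 (adjusted p = 0.117). The 2 responses differed by 0.80 ± 0.09 (adjusted p = 3.13e-07, edgeR), and this held without any 1 library. ATP5MC1 stayed higher in sgUTX cells under the inhibitor, with 84.5, 96.1, 100.3 and 95.6 CPM against 55.4 and 51.6 CPM in sgLuc libraries (log2 0.81 ± 0.08, adjusted p = 1.21e-08, edgeR).

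Per transcript length, ATP5MC2 made up 40.3% ± 2.2 (SD, n = 4) of the summed c subunit level in sgUTX DMSO libraries and 60.2% ± 0.35 (SD, n = 2) in sgLuc DMSO libraries. ATP5MC1 made up 17.8% ± 0.16 in sgUTX DMSO libraries and 7.47% ± 0.31 in sgLuc DMSO libraries. ATP5MC3, whose CPM did not pass the test, took 41.9% ± 2.2 of the level in sgUTX and 32.3% ± 0.039 in sgLuc DMSO libraries. The sum of the 3 genes was 826 ± 68.5 CPM per kb in sgUTX and 1056 ± 28.9 CPM per kb in sgLuc DMSO libraries, and 830 ± 69.1 and 780 ± 31.3 CPM per kb in sgUTX and sgLuc SGC0946 libraries. In each share the groups did not overlap in DMSO.

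**Figure D1:**
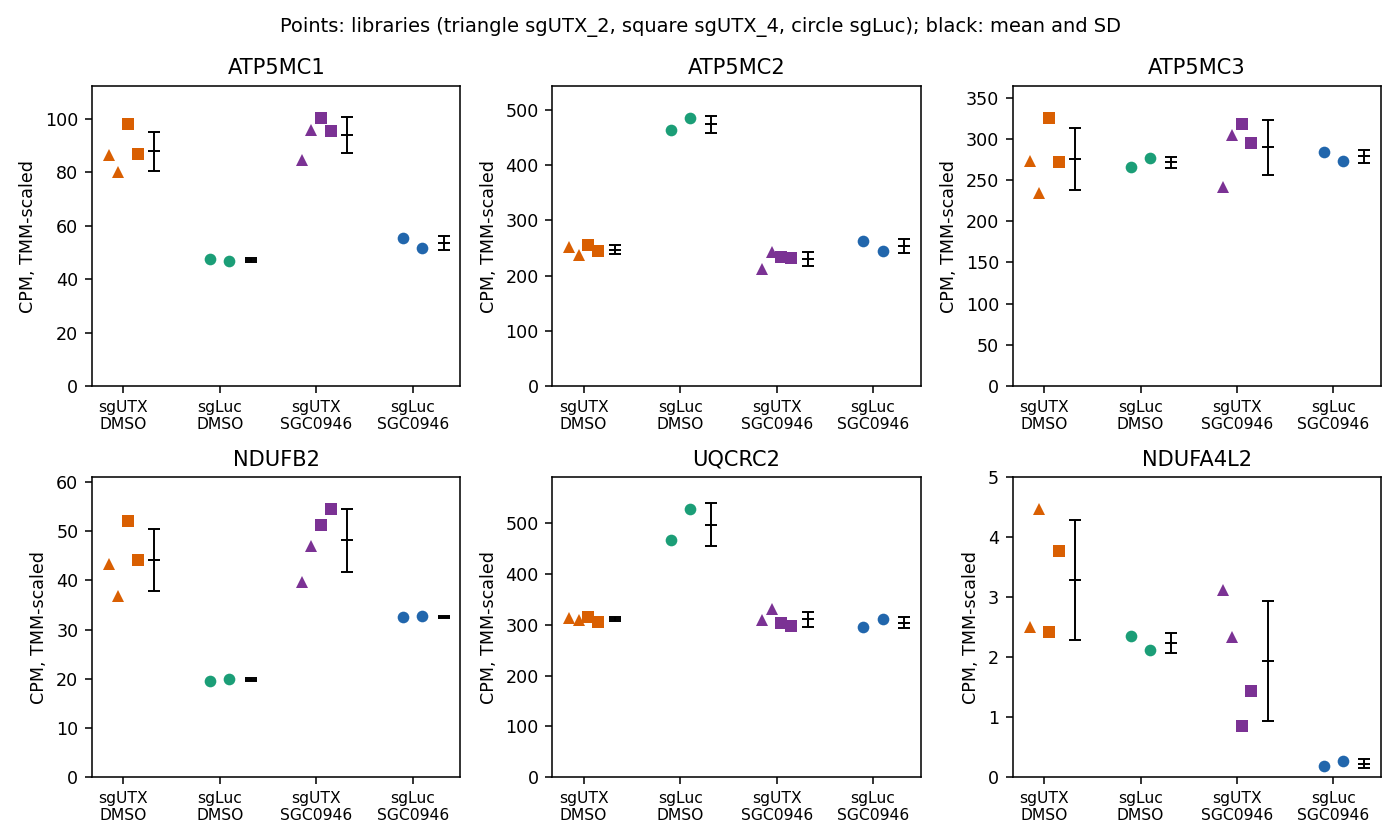
TMM-scaled CPM (linear axis) of 6 nuclear members in each library, with triangles for sgUTX_2, squares for sgUTX_4, circles for sgLuc, and black marks for the mean and SD of the sgUTX (n = 4) and sgLuc (n = 2) libraries of each treatment. ATP5MC2 and UQCRC2 (shown after its values were seen) are high in the 2 sgLuc DMSO libraries only, while ATP5MC1 and NDUFB2 are lower in the sgLuc than in the sgUTX libraries of both treatments.

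For the nuclear members as a whole, calls went in both directions, while for the 13 mitochondrially encoded (MT) genes they went one way in each comparison of sgUTX with sgLuc and of SGC0946 with DMSO, with TMM scaling. In DMSO, 12 of 81 nuclear members were called higher for sgUTX over sgLuc and 28 lower (14.8% and 34.6%), against 28.7% higher and 32.3% lower among all 15060 genes tested. None of the 13 MT members was higher and 9 were lower. The median log2 fold change was -0.14 for nuclear members and -0.46 for MT members, against -0.01 for all genes. With library size alone the split became 30 higher and 14 lower for nuclear members, and 3 higher and 7 lower for MT members, so the balance of nuclear members turned with the scaling. In bulk RNA, a change in the number of cells of a kind cannot be told apart from a change in RNA per cell.

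**Figure D2:**
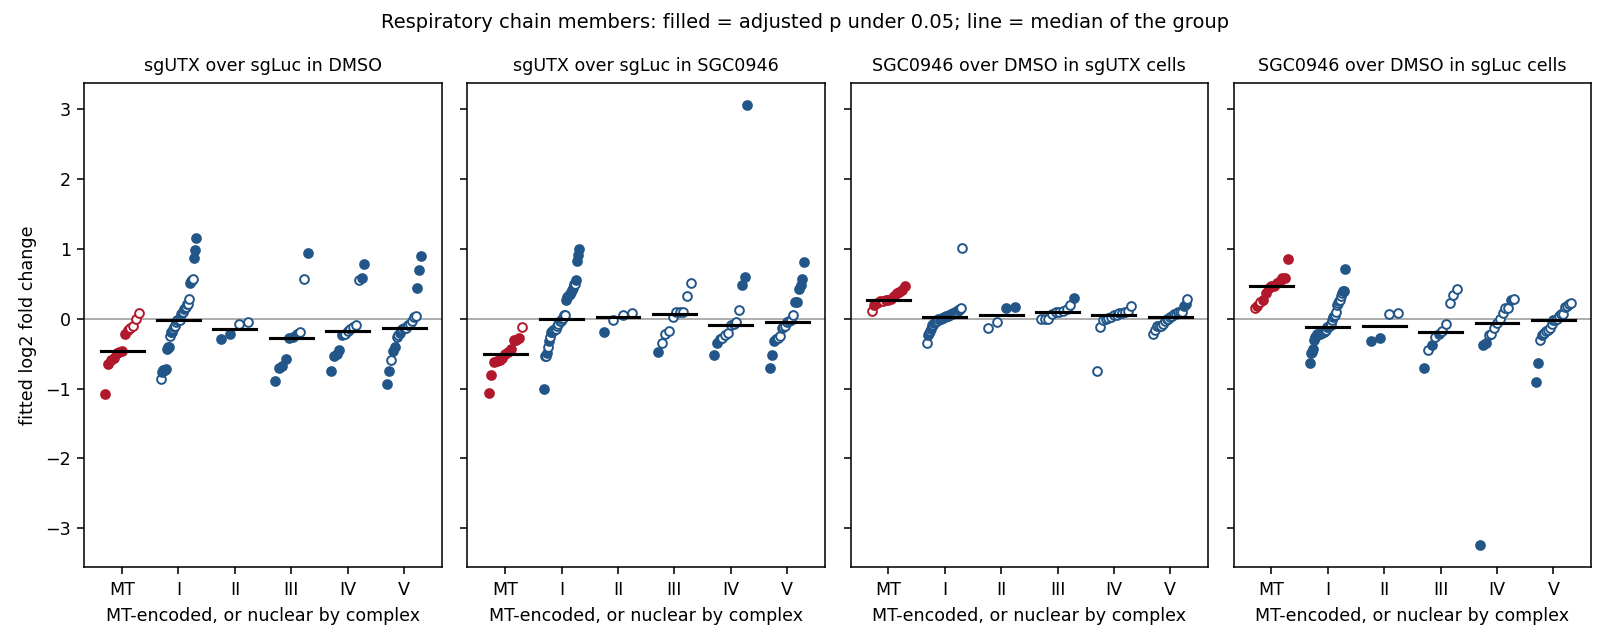
Fitted log2 fold change (vertical axis) of each member in 4 comparisons, grouped as MT-encoded (red) or nuclear by complex (blue), filled where the adjusted p was under 0.05 and with a line at each median. The MT members lie below 0 for sgUTX over sgLuc in SGC0946 and above 0 for SGC0946 over DMSO in both kinds of cells, while nuclear members lie on both sides of 0 in every complex except complex II for sgUTX over sgLuc in DMSO, where all 4 lie below 0.

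Complex I, with 35 nuclear members, had 6 higher and 8 lower in sgUTX DMSO cells (17.1% and 22.9%), against 28.7% and 32.3% among all genes. NDUFB2 (chr7:140690777-140722790), a small accessory subunit of the membrane arm, had 43.2, 36.8, 52.1 and 44.2 CPM in sgUTX libraries, against 19.59 and 20.05 CPM in sgLuc libraries. The groups did not overlap, and NDUFB2 rose by 1.15 ± 0.14 (log2, adjusted p = 1.87e-06, edgeR). NDUFS1, the large iron-sulfur subunit of the arm that receives electrons from NADH, rose by 0.54 ± 0.06 (adjusted p = 5.34e-08), and NDUFS4, an accessory subunit of the same arm, fell by 0.73 ± 0.10 (adjusted p = 6.89e-06). NDUFS4 had 61.4, 46.5, 62.5 and 48.7 CPM in sgUTX libraries, against 86.7 and 94.8 CPM in sgLuc libraries. NDUFA13, an accessory subunit, had the second highest fold change among the higher members from few counts, 40, 67, 56 and 37 in sgUTX libraries against 23 and 14 in sgLuc libraries (log2 0.99 ± 0.34, adjusted p = 0.0151). That call was lost without replicate 2 of sgLuc DMSO (adjusted p = 0.126).

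Complex II had 2 of 4 members lower, and complex III 7 of 10 lower and 1 higher, against 32.3% lower and 28.7% higher among all genes. UQCRC2, a core subunit of complex III whose values were picked after they were seen, had 314, 310, 315 and 306 CPM in sgUTX DMSO libraries, against 467 and 527 CPM in sgLuc DMSO libraries. It fell by 0.68 ± 0.06 (adjusted p = 1.71e-09, edgeR). UQCRH, the hinge protein of complex III, and its near-identical copy UQCRHL both fell, by 0.58 ± 0.10 and 0.90 ± 0.23. Reads can be split between UQCRH and UQCRHL, which had only 659 counts in all libraries.

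Complex IV had 2 of 13 nuclear members higher and 5 lower, and complex V 3 of 19 higher and 6 lower. The shares lower (38.5% and 31.6%) are near the 32.3% of all genes. With each guide set against sgLuc, complex IV had 8 members lower for sgUTX_2 (median log2 -0.41) and 4 for sgUTX_4 (median log2 0.03). Compared directly in DMSO, 1 of the 13 was higher with sgUTX_4 than with sgUTX_2 and 0 were lower. Among all genes 1.72% were higher and 1.77% lower in that test. With both guides against sgLuc, COX8A and COX6A1, both isoforms found in most tissues, rose by 0.78 ± 0.07 and 0.58 ± 0.09. COX4I1, the main form of subunit 4, fell by 0.45 ± 0.08. COX6A1 had 53.2, 53.3, 59.4 and 59.8 CPM in sgUTX libraries, against 40.4 and 34.9 CPM in sgLuc libraries, and COX4I1 had 401, 364, 461 and 415 CPM against 529 and 588 CPM in sgLuc libraries. COX7A2L, an assembly factor of supercomplexes of complexes III and IV, fell by 0.75 ± 0.06 (adjusted p = 1.9e-10, edgeR). COX6B1 fell by 0.54 ± 0.12, at 128, 104, 151 and 129 CPM in sgUTX libraries against 183 and 189 CPM in sgLuc libraries. COX7A2, the partner of the nearly silent COX7A1, had 169, 143, 221 and 182 CPM in sgUTX libraries against 203 and 214 CPM in sgLuc libraries, which overlap, and did not pass the test (adjusted p = 0.209). Every call named here for complexes I, III and IV, other than that of NDUFA13, held in each fit that left out 1 library.

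Several members with higher counts in sgUTX cells share sequence with neighbouring genes in the annotation, and the use of strand in counting is not given in the sources used here. The share of the principal transcript that overlaps another gene was 67% for NDUFA11, 46.2% for ATP5MF, 44.8% for UQCR11, 44.1% for NDUFA13, 37.9% for NDUFS7, 34.5% for COX8A, 30.6% for COX6A1, 29.6% for NDUFB2 and 20.1% for ATP5S, so counts of these genes are uncertain. In a split made after values were seen, the 25 nuclear members with at least 10% shared had 9 higher and 2 lower in sgUTX DMSO cells (median log2 0.22). The 56 with less had 3 higher and 26 lower (median log2 -0.19). The part of reads from neighbours in this was not tested.

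Among the MT members, MT-ND3 (a membrane subunit of complex I, M:10059-10404) had 99.3, 81.2, 154 and 125 CPM in sgUTX DMSO libraries, against 241 and 242 CPM in sgLuc DMSO libraries. MT-CO3 (a core subunit of complex IV, M:9207-9990) had 919, 1008, 997 and 1021 CPM in sgUTX DMSO libraries, against 1443 and 1658 CPM in sgLuc DMSO libraries. Neither gene's groups overlapped. MT-ND3 fell by 1.07 ± 0.26 (adjusted p = 0.00691) and MT-CO3 by 0.65 ± 0.07 (adjusted p = 2.9e-08, edgeR). MT-ND4 fell by 0.59 ± 0.06, MT-ND1 by 0.56 ± 0.11, MT-CO2 by 0.49 ± 0.07, MT-ND2 by 0.47 ± 0.07 and MT-ND4L by 0.46 ± 0.06, and all 7 calls held without any 1 library and with library size alone. MT-CYB and MT-ND6 were also called lower, but their fold changes turned positive with library size alone (0.056 and 0.11). Without replicate 2 of sgLuc DMSO both calls were lost (adjusted p = 0.125 and 0.239), and that of MT-ND6 also without its replicate 1 or either sgUTX_4 DMSO replicate.

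The MT-encoded subunits of ATP synthase were not called. MT-ATP6 had 729, 829, 780 and 836 CPM in sgUTX DMSO libraries, against 775 and 821 CPM in sgLuc DMSO libraries, and MT-ATP8 had 29.55, 30.31, 28.97 and 22.78 CPM against 25.1 and 27.9 CPM in sgLuc libraries. Groups overlapped for both (log2 -0.01, adjusted p = 0.937, and 0.08, adjusted p = 0.526, edgeR). MT-CO1 had 3606, 3733, 3226 and 3452 CPM against 3598 and 3898 CPM in sgLuc libraries (adjusted p = 0.214), and MT-ND5 had 559, 562, 514 and 537 CPM against 578 and 619 CPM (adjusted p = 0.0564). The groups overlapped for MT-CO1 and not for MT-ND5.

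**Figure D3:**
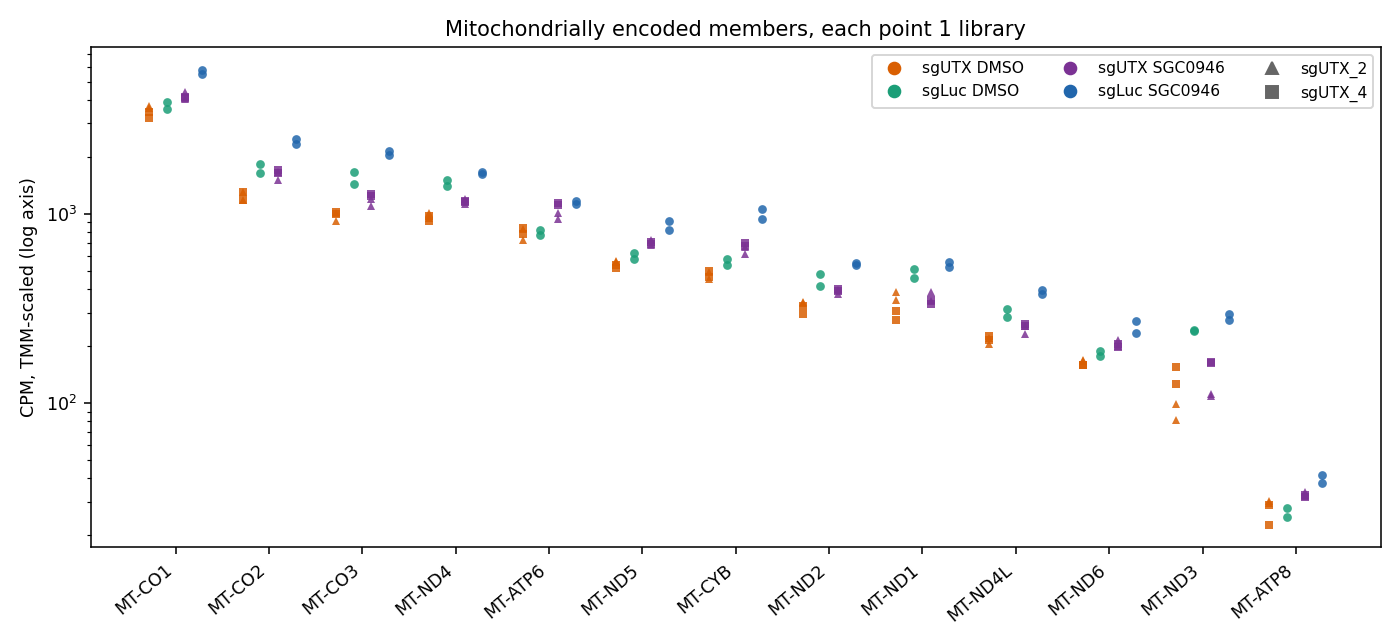
TMM-scaled CPM (log axis) of the 13 mitochondrially encoded members in each library, with triangles for sgUTX_2, squares for sgUTX_4 and circles for sgLuc. Both sgLuc SGC0946 libraries lie above all other libraries for every gene except MT-ATP6, where the highest sgUTX SGC0946 value (1140 CPM) lies between those of the sgLuc libraries (1163 and 1124 CPM), and MT-ND3 differs between the guides.

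The makeup of the MT transcript pool also differed, which does not depend on the scaling. Of the counts on the 13 genes, MT-CO3 took 10.2% ± 0.55 in sgUTX and 12.8% ± 0.44 in sgLuc DMSO libraries, and MT-ND4 9.94% ± 0.0091 and 11.9% ± 0.15. MT-ATP6 took 8.20% ± 0.44 in sgUTX and 6.59% ± 0.15 in sgLuc DMSO libraries, and MT-CO1 36.2% ± 1.2 and 30.9% ± 0.22 (SD, n = 4 and 2). In SGC0946, MT-CO3 took 10.0% ± 0.37 in sgUTX and 12.5% ± 0.030 in sgLuc libraries, and MT-ATP6 8.80% ± 0.58 and 6.80% ± 0.099. In none of these 6 comparisons did the groups overlap. MT-ND4 took 9.73% ± 0.19 in sgUTX and 9.81% ± 0.20 in sgLuc SGC0946 libraries, which overlap.

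The share of all counts that fell on MT members was nearly level in DMSO, at 0.968% to 1.09% in sgUTX and 1.03% and 1.08% in sgLuc libraries. With SGC0946 it was 1.18% to 1.31% in sgUTX and 1.61% and 1.51% in sgLuc libraries. The 81 nuclear members took 1.07% to 1.32% in sgUTX and 1.13% and 1.14% in sgLuc DMSO libraries, and 1.15% to 1.29% in sgUTX and 1.09% and 1.08% in sgLuc SGC0946 libraries. Mitochondrial ribosomal RNA took 0.124% to 0.159% in sgUTX and 0.300% and 0.614% in sgLuc DMSO libraries, and 0.174% to 0.191% and 0.393% and 0.384% with SGC0946. Reads can also be shared with nuclear copies of MT genes, whose 578 to 703 counts in sgUTX DMSO libraries, against 934 and 1018 in sgLuc DMSO libraries, were few beside the MT members. MT-RNR2, the large ribosomal RNA, fell by 1.75 ± 0.18 in sgUTX DMSO cells (log2, adjusted p = 2.75e-05, edgeR).

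**Figure D4:**
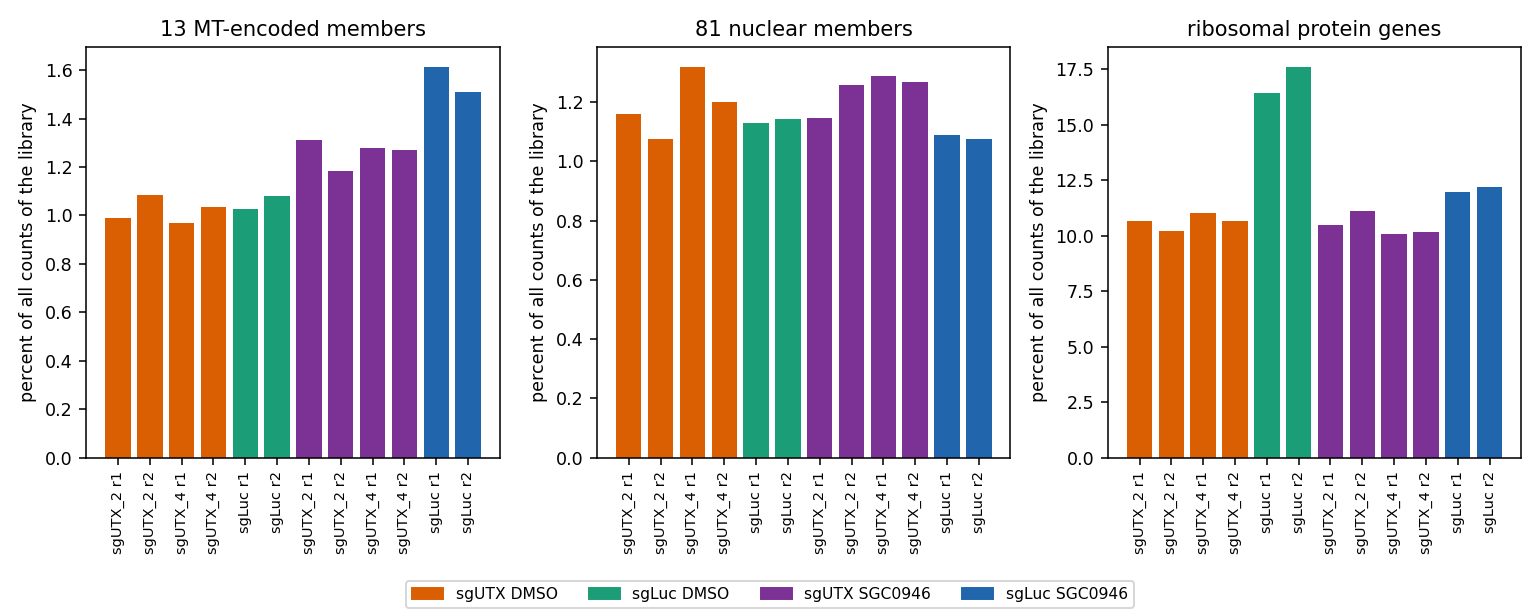
Percent of all counts of each library that fell on the 13 MT-encoded members, the 81 nuclear members and the cytoplasmic ribosomal protein genes (bars start at 0; r1 and r2 are the replicates). The MT share is highest in the 2 sgLuc SGC0946 libraries (1.61% and 1.51%), and the ribosomal protein share is highest in the 2 sgLuc DMSO libraries (16.4% and 17.6%).

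Under SGC0946, 12 of 13 MT members were lower in sgUTX than in sgLuc cells and none higher (92.3%), against 29.3% lower and 27.7% higher among all genes. Their median log2 fold change was -0.51, and -0.321 with library size alone, which kept 9 calls. MT-CO3 had 1199, 1094, 1270 and 1239 CPM in sgUTX libraries, against 2156 and 2035 CPM in sgLuc libraries (log2 -0.80 ± 0.07, adjusted p = 1.12e-09, edgeR). MT-ND3 had 110, 111, 163 and 165 CPM in sgUTX libraries, against 296 and 276 CPM in sgLuc libraries (log2 -1.06 ± 0.26, adjusted p = 0.00757). MT-CYB, the cytochrome b of complex III, had 664, 613, 701 and 672 CPM in sgUTX libraries, against 1064 and 938 CPM in sgLuc libraries (log2 -0.60 ± 0.07, adjusted p = 7.67e-08). None of these 3 genes overlapped between groups. Of the 12 calls, 11 held without any 1 library, and that of MT-ATP8 (log2 -0.28) was lost without replicate 2 of sgLuc SGC0946 (adjusted p = 0.181).

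Nuclear members under SGC0946 were 22 higher and 14 lower for sgUTX over sgLuc (27.2% and 17.3%), against 27.7% and 29.3% of all genes, so the share higher is near the background. With library size alone 34 were higher and 5 lower. Complex I held 13 of the 22 higher members. The matrix arm of complex I, which carries electrons from NADH to coenzyme Q, had 4 of its 7 core subunits higher and none lower, with NDUFS7 up by 0.99 ± 0.13 (adjusted p = 7.16e-06), NDUFS8 by 0.44 ± 0.09, NDUFS1 by 0.42 ± 0.06 and NDUFV1 by 0.38 ± 0.06 (edgeR). NDUFS7, which carries the last iron-sulfur cluster before coenzyme Q, had 41.5, 45.5, 41.4 and 43.6 CPM in sgUTX libraries, against 21.7 and 21.5 CPM in sgLuc libraries. Complex III had 1 lower member and none higher, complex IV 3 higher and 3 lower, and complex V 6 higher and 4 lower.

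At the other end, NDUFB1, a small membrane-arm subunit, had 19.2, 21.0, 27.9 and 25.1 CPM in sgUTX SGC0946 libraries, against 48.5 and 44.3 CPM in sgLuc SGC0946 libraries. The groups did not overlap (log2 -1.001 ± 0.274, adjusted p = 0.0125, edgeR), but the call was lost without replicate 1 of sgLuc SGC0946 (adjusted p = 0.0739). NDUFS4 fell by 0.53 ± 0.10 and COX7A2L by 0.52 ± 0.06, both also without any 1 library. The comparisons of sgUTX and sgLuc in the 2 treatments share no library, and 11 nuclear members were higher and 9 lower in both. That is 11 of the 12 higher in DMSO and of the 22 higher in SGC0946, and 9 of the 28 and 14 lower members. All 9 MT members lower in DMSO were among the 12 of 13 lower in SGC0946. The share of all genes called alike in both comparisons is not given here, so these overlaps stand without a background. ATP5F1D and ATP5F1A, of the F1 part of ATP synthase, and NDUFV1, the NADH-binding subunit, were called lower in DMSO and higher in SGC0946, and their DMSO fold changes turned positive with library size alone (0.1381, 0.0643 and 0.08909). Without replicate 2 of sgLuc DMSO all 3 of these DMSO calls were lost (adjusted p = 0.234, 0.164 and 0.103), and that of ATP5F1D also without replicate 1 of sgLuc DMSO, either sgUTX_2 DMSO replicate, replicate 1 of sgUTX_4 DMSO or either sgLuc SGC0946 replicate. Without replicate 1 of sgLuc SGC0946 the call of ATP5F1A in SGC0946 was lost (adjusted p = 0.0725).

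NDUFA4L2 had the largest fitted fold changes of any member for SGC0946 in sgLuc cells and for sgUTX over sgLuc in SGC0946. It is a low-oxygen-induced relative of NDUFA4, a subunit of complex IV. Its counts were 51, 102, 44 and 70 in sgUTX DMSO, 38 and 28 in sgLuc DMSO, 70, 57, 15 and 28 in sgUTX SGC0946, and 3 and 5 in sgLuc SGC0946 libraries. In CPM these were 3.12, 2.34, 0.849 and 1.43 in sgUTX SGC0946 libraries, against 0.181 and 0.277 CPM in sgLuc SGC0946 libraries (log2 3.06 ± 0.60, adjusted p = 0.00025, edgeR), with no overlap. The inhibitor lowered it in sgLuc cells, where DMSO libraries had 2.36 and 2.12 CPM (log2 -3.25 ± 0.66, adjusted p = 0.000461), and the change in sgUTX cells did not pass the test (log2 -0.74, adjusted p = 0.0616). Both calls held without any 1 library, while the difference of the responses (2.504 ± 0.752, adjusted p = 0.0143) was lost without any one of replicate 1 of sgLuc DMSO and both sgLuc SGC0946 replicates (highest adjusted p = 0.0980). NDUFA4 itself had 110, 130, 128 and 124 CPM in sgUTX SGC0946 libraries, against 159 and 154 CPM in sgLuc SGC0946 libraries. Per length NDUFA4L2 was 1.18% to 4.89% of the pair in sgUTX and 0.206% and 0.325% in sgLuc SGC0946 libraries.

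SGC0946 raised most MT mRNAs in both kinds of cells. Of the 2 MT ribosomal RNAs, 0 were called in either kind (median log2 0.45 in sgUTX and -0.72 in sgLuc cells). The difference of these responses, sgUTX minus sgLuc, was called higher for 1 of the 2 (median log2 1.16), against 18.3% of all genes. The share of counts on these RNAs was itself uneven in the sgLuc DMSO libraries, at 0.300% and 0.614%. In sgUTX cells 11 of 13 MT members were higher than in DMSO and none lower, against 17.4% higher and 16.4% lower among all genes. In sgLuc cells the figures were also 11 and 0, against 24.7% higher and 24.2% lower among all genes, and the same 11 genes were higher in both. The share of all genes higher in both is not given here. The median log2 fold change of the MT members was 0.27 in sgUTX and 0.47 in sgLuc cells. MT-ND1 did not pass the test in sgUTX or sgLuc cells (log2 0.11 and 0.16), nor did MT-ND3. MT-CYB rose by 0.47 ± 0.06 in sgUTX cells (adjusted p = 4.87e-07), where DMSO libraries had 454, 493, 464 and 497 CPM. It rose by 0.85 ± 0.08 in sgLuc cells (adjusted p = 7.65e-09, edgeR), where DMSO libraries had 535 and 576 CPM. MT-ATP6 rose by 0.41 ± 0.06 in sgUTX cells, with 1012, 943, 1140 and 1111 CPM in SGC0946 libraries, and by 0.52 ± 0.09 in sgLuc cells. With library size alone all 11 calls held in both kinds of cells. Without any 1 library 10 held in sgUTX cells and 9 in sgLuc cells. The call of MT-ATP8 in sgUTX cells was lost without replicate 2 of sgUTX_4 DMSO (highest adjusted p = 0.150), replicate 1 of sgUTX_2 SGC0946 or either sgUTX_4 SGC0946 replicate. In sgLuc cells the call of MT-ND2 was lost without replicate 1 of sgLuc DMSO (adjusted p = 0.140), and that of MT-ND4 without the same library (highest adjusted p = 0.216) or either sgLuc SGC0946 replicate.

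Among the nuclear members in sgUTX cells the inhibitor raised 5 and lowered 3 of 81, against 17.4% and 16.4% of all genes, with a median log2 fold change of 0.04. The count of 3 was 1 without replicate 1 of sgUTX_2 DMSO and 5 without its replicate 2. UQCRFS1, the iron-sulfur protein of complex III, rose by 0.29 ± 0.07 (adjusted p = 0.00365, edgeR) and ATP5F1A rose by 0.21 ± 0.06. NDUFS4 was called lower (log2 -0.24, adjusted p = 0.0397), but the call was lost without any one of 5 libraries (highest adjusted p = 0.138), which were replicate 1 of sgUTX_2 DMSO, sgUTX_4 DMSO and sgUTX_2 SGC0946, and both replicates of sgUTX_4 SGC0946.

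In sgLuc cells the inhibitor raised 4 and lowered 23 nuclear members (4.94% and 28.4%), against 24.7% higher and 24.2% lower among all genes, so the share lower is near the background and the share higher below it. The median log2 fold change was -0.11. The lower members included 12 of 35 in complex I, 2 of 4 in complex II and 3 each in complexes III, IV and V. Of the 14 nuclear members counted as catalytic or redox core, 8 were lower and none higher. Among them were NDUFV1, by 0.47 ± 0.07, and CYC1, the cytochrome c1 of complex III, by 0.38 ± 0.09. SDHA, the flavoprotein of complex II, was not counted among these 14 and fell by 0.31 ± 0.07. UQCRC2 had 297 and 312 CPM in sgLuc SGC0946 libraries, against 467 and 527 CPM in sgLuc DMSO libraries (log2 -0.71 ± 0.07, adjusted p = 2.7e-08, edgeR). ATP5F1D, the delta subunit of the F1 part of ATP synthase, fell by 0.64 ± 0.07. NDUFB2 went the other way, at 32.4 and 32.7 CPM in sgLuc SGC0946 and 19.59 and 20.05 CPM in sgLuc DMSO libraries (log2 0.72 ± 0.16, adjusted p = 0.00122). The number of members lower was 11 without replicate 2 of sgLuc DMSO or replicate 1 of sgLuc SGC0946 and 12 without replicate 2 of sgLuc SGC0946 or with library size alone, and the named calls held in each of these fits that left out 1 library. The responses in the 2 genotypes share no library, and NDUFS4 was among the 2 nuclear members lower in both. The share of all genes lower in both is not given here. The call of NDUFS4 in sgLuc cells was lost without replicate 2 of sgLuc DMSO (adjusted p = 0.0582) or of sgLuc SGC0946 (adjusted p = 0.0649).

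The difference of the 2 responses was tested directly. It was positive for 18 nuclear members and negative for 2 (22.2% and 2.47%), against 18.3% and 16.5% of all genes, and negative for 3 MT members. Complex III held 5 of the 18 positive members of its 10, and the catalytic or redox core 7 of 14. The positive differences of ATP5MC2 (0.80 ± 0.09), UQCRC2 (0.71 ± 0.09), NDUFV1 (0.57 ± 0.09), ATP5F1D (0.56 ± 0.08) and ATP5F1A (0.45 ± 0.10) held without any 1 library. For UQCRC2, sgUTX SGC0946 libraries had 310, 331, 304 and 299 CPM, with a log2 fold change of -0.00 ± 0.05 from DMSO (adjusted p = 0.98). The 297 and 312 CPM of the sgLuc SGC0946 libraries overlap or adjoin these values. The count of 18 was 6 without replicate 2 of sgLuc DMSO and 10 without either sgLuc SGC0946 replicate. NDUFS7 (0.71 ± 0.18) lost its call without replicate 2 of sgLuc DMSO (adjusted p = 0.0562).

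None of the 5 negative differences held in every fit that left out 1 library. Their number was 0 without replicate 1 of sgLuc SGC0946, 2 without any one of the other sgLuc libraries, and 3 without any one of replicate 1 of sgUTX_2 DMSO and of sgUTX_4 DMSO and replicate 2 of sgUTX_2 SGC0946 and of sgUTX_4 SGC0946. NDUFB2 (-0.59 ± 0.19, adjusted p = 0.0212) lost its call without any one of the 4 sgLuc libraries (highest adjusted p = 0.0886). NDUFA6, a complex I accessory subunit, had 53.2, 63.2, 63.8 and 62.2 CPM in sgUTX SGC0946 and 61.9, 50.4, 70.6 and 57.4 CPM in sgUTX DMSO libraries. In sgLuc cells it had 75.7 and 74.7 CPM with SGC0946 and 59.1 and 54.8 CPM with DMSO, and its difference (-0.39 ± 0.15, adjusted p = 0.0499) was lost without any one of 10 of the libraries (highest adjusted p = 0.190). MT-CYB (-0.37 ± 0.10, adjusted p = 0.00402) lost its call without replicate 1 of sgLuc SGC0946 (adjusted p = 0.0618). The difference for MT-CO1 (-0.33 ± 0.09) was lost without replicate 1 of sgLuc DMSO (adjusted p = 0.0645) or of sgLuc SGC0946 (adjusted p = 0.0612).

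**Figure D5:**
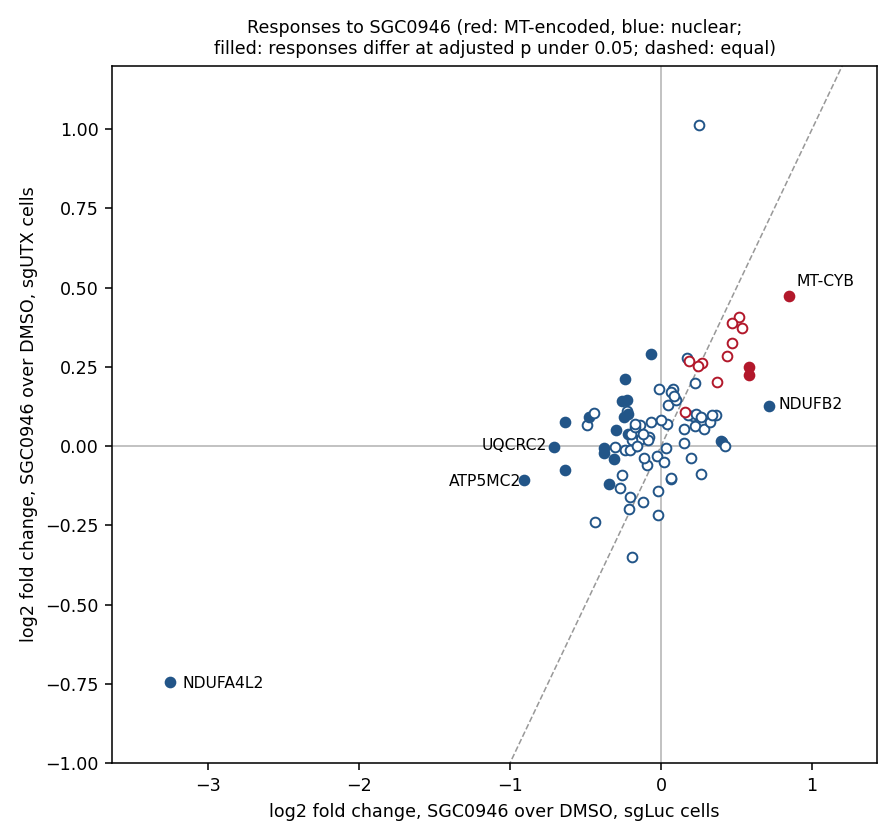
Log2 fold change of each member with SGC0946 over DMSO in sgUTX cells (vertical) against that in sgLuc cells (horizontal), red for MT-encoded and blue for nuclear, filled where the 2 responses differed at an adjusted p under 0.05, with a dashed line of equal response. ATP5MC2 and UQCRC2 lie at -0.91 and -0.71 in sgLuc cells and near 0 in sgUTX cells, and the MT members lie above 0 on both axes.

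The 2 guides were compared in a fit of 6 groups. In DMSO, 10 nuclear members were higher and none lower with sgUTX_4 than with sgUTX_2, against 1.72% higher and 1.77% lower among all genes, and in SGC0946 4 were higher and 1 lower, against 1.61% and 1.4%. NDUFB8 (0.72 in DMSO, 0.70 in SGC0946), NDUFC1 (0.59 and 0.53), NDUFA3 (0.59 and 0.68), all accessory subunits of complex I, and ATP5PO of the ATP synthase stalk (0.43 and 0.28) were called in both treatments, as was MT-ND3 (0.63 and 0.57). These counts rest on single libraries. In DMSO 11 members were higher in all, but 2 without replicate 1 of sgUTX_4, 3 without replicate 2 of sgUTX_2, 7 without either sgLuc SGC0946 replicate, 22 without replicate 1 of sgUTX_2 and 25 without replicate 2 of sgUTX_4. In SGC0946 5 were higher, but 0 without replicate 1 of sgUTX_2, 1 without replicate 1 of sgUTX_4, 3 without either sgLuc SGC0946 replicate, 8 without either sgUTX_2 DMSO replicate and 10 without either sgUTX_4 DMSO replicate.

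Among the 4 sgUTX DMSO libraries, replicate 1 of sgUTX_4 was highest for 67 of 81 nuclear members and replicate 2 of sgUTX_2 lowest for 68. The median log2 ratio of these libraries was 0.39, with 77 members higher, and across members the ratio fell with principal transcript length (Spearman rho = -0.48 over 81 genes that share the same libraries, a description). With each guide set against sgLuc alone, MT members in DMSO were 8 lower for sgUTX_2 and 11 for sgUTX_4, none higher, against 32.2% and 31.2% lower among all genes. With SGC0946 the numbers were 13 and 12, against 29.1% and 29%. Nuclear members in DMSO were 13 higher and 41 lower for sgUTX_2, and 20 higher and 27 lower for sgUTX_4, against 28.2% and 28.5% higher among all genes.

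Genes that act on mitochondrial DNA and its RNA were given as lists beside the members. The counts of these and the following lists for sgUTX over sgLuc stand against 28.7% higher and 32.3% lower among all genes in DMSO, and 27.7% and 29.3% in SGC0946. Of 13 genes of mitochondrial DNA transcription and replication, 7 were higher and 2 lower in sgUTX DMSO cells, and 8 higher and 1 lower in sgUTX SGC0946 cells. TFAM, which packages mitochondrial DNA and starts its transcription, averaged 173 ± 10.1 CPM in sgUTX (SD, n = 4) and 97.2 ± 5.58 CPM in sgLuc DMSO libraries (n = 2), with a log2 difference of 0.83 ± 0.06 (adjusted p = 1.8e-10, edgeR). The helicase TWNK rose by 0.77 ± 0.07 in DMSO and 1.15 ± 0.07 in SGC0946. Of 19 genes of mitochondrial RNA processing and stability, 13 were higher and none lower in sgUTX DMSO cells (8 without replicate 1 of sgLuc DMSO), and 14 higher and none lower in SGC0946. ELAC2, which cuts the ends of mitochondrial tRNAs, rose by 0.59 ± 0.06 and 0.78 ± 0.06. Over the same comparisons 9 and 12 of the 13 MT mRNAs were lower. In sgLuc cells SGC0946 lowered 7 of the 19 and raised 1, against 24.2% lower and 24.7% higher among all genes. The number lower was 4 without replicate 2 of sgLuc DMSO or with library size alone. LRPPRC, which stabilizes MT mRNAs, was down by 0.65 ± 0.09 with SGC0946 in sgLuc cells.

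Of 10 regulators of mitochondrial biogenesis, 8 were higher and 2 lower in sgUTX DMSO cells, and 6 higher and none lower in SGC0946, against 28.7% and 32.3% of all genes in DMSO and 27.7% and 29.3% in SGC0946. The coactivator PPARGC1B averaged 35.1 ± 3.91 CPM in sgUTX and 14.0 ± 0.915 CPM in sgLuc DMSO libraries (log2 1.34 ± 0.12), and PPRC1 rose by 1.04 ± 0.10 in DMSO and 1.05 ± 0.10 in SGC0946. MYC was lowered by SGC0946 in sgLuc cells, with 346 ± 5.79 CPM against 784 ± 27.1 CPM in sgLuc DMSO libraries (log2 -1.18 ± 0.07, adjusted p = 3.39e-12, edgeR). Its responses differed by 1.07 ± 0.08.

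Among enzymes that feed electrons into the chain, calls were counted in the same way. Of 22 genes of the tricarboxylic acid cycle and pyruvate dehydrogenase, SGC0946 lowered 12 and raised 2 in sgLuc cells (7 lower without replicate 1 of sgLuc SGC0946 or with library size alone), against 24.2% lower and 24.7% higher among all genes, among them citrate synthase CS by 0.68 ± 0.06 and MDH2 by 0.59 ± 0.07. In sgUTX DMSO cells 3 were higher and 6 lower, and with library size alone 15 higher and 3 lower. Of 16 genes of electron carriers and coenzyme Q synthesis, 11 were higher and 4 lower in sgUTX DMSO cells, and PDSS1, which makes the coenzyme Q tail, rose by 1.13 ± 0.11.

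Assembly factors were counted by complex, against 27.7% higher and 29.3% lower among all genes for sgUTX over sgLuc in SGC0946. In sgUTX SGC0946 cells 10 of 18 complex I factors were higher and 1 lower (6 higher without replicate 2 of sgLuc SGC0946), 7 of 10 complex II and III factors were higher and 1 lower (3 higher without replicate 2 of sgLuc SGC0946), and 7 of 24 complex IV factors were higher and 1 lower (13 higher with library size alone). The share of complex IV factors called higher is near that of all genes. ECSIT, a complex I assembly factor, averaged 46.4 ± 0.947 CPM with SGC0946 and 101 ± 0.978 CPM with DMSO in sgLuc cells (log2 -1.13 ± 0.08, adjusted p = 1.36e-10, edgeR). COA7, a complex IV factor, rose by 1.29 ± 0.09 in sgUTX DMSO cells. SDHAF4, which helps mature the flavoprotein of complex II, fell by 1.46 ± 0.12 in sgUTX DMSO cells.

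Of 11 oxygen-responsive mitochondrial genes, 3 were higher and 6 lower in sgUTX DMSO cells, and 5 higher and 6 lower in SGC0946 (3 higher without replicate 2 of sgLuc SGC0946 or replicate 2 of sgUTX_2 SGC0946). Among all genes 28.7% were higher and 32.3% lower in DMSO, so the share of the list called higher there is near the background. The mitophagy receptor BNIP3 averaged 22.4 ± 1.95 CPM in sgUTX and 168 ± 1.62 CPM in sgLuc DMSO libraries (log2 -2.90 ± 0.07, adjusted p = 1.3e-18), and BNIP3L averaged 56.7 ± 2.60 CPM in sgUTX and 247 ± 2.77 CPM in sgLuc DMSO libraries (log2 -2.12 ± 0.06, adjusted p = 3.61e-18, edgeR). With SGC0946 both were again lower in sgUTX than in sgLuc cells, by 1.97 ± 0.07 for BNIP3 and 1.98 ± 0.06 for BNIP3L. Of 13 genes of the mitochondrial stress response, SGC0946 lowered 6 and raised none in sgUTX cells, and lowered 7 and raised 1 in sgLuc cells, against 16.4% and 24.2% of all genes lower.

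Over the 5 comparisons, 23 of the 94 members were called in none, among them ATP5MC3 and NDUFV2. NDUFV2, a core iron-sulfur subunit of complex I, had only 0.294, 0.0876, 0.716 and 0.648 CPM in sgUTX DMSO libraries, against 1.06 and 0.454 CPM in sgLuc DMSO libraries. Its principal transcript shares 82.9% of its bases with another annotated gene, so these counts cannot be read as its level.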

How the data were processed

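The members and the pathway lists were chosen with earlier results of these data known. Per the labels' protocols, libraries were made from total RNA with the NEBNext Ultra kit and sequenced as pairs of 150 bases. The authors deposited raw read counts per gene, not normalized. The submitters' processing notes name STAR 2.5.1b and hg19. How reads were counted, and with which strand setting, is not given in the sources used here. The identifiers are those of GENCODE 29 (GRCh38), so the build behind the counts is uncertain, and positions are those of GENCODE 29.

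From the deposited counts, fold changes were fitted by edgeR 4.0.16 (R 4.3.3) after TMM scaling and filterByExpr, with two-sided robust quasi-likelihood F-tests. P-values were adjusted by Benjamini-Hochberg over all 15060 genes tested, and a gene was called where the adjusted p was under 0.05. The 12 libraries were fitted in 4 groups (sgUTX or sgLuc, SGC0946 or DMSO) with both guides as replicates, giving 8 residual degrees of freedom and a common biological coefficient of variation of 0.0775. Comparisons of single guides used a fit of 6 groups with 6 residual degrees of freedom. Each fold change is on the log2 scale, with an SE derived from its F value. Levels per kb divide CPM by the length of the principal transcript, and shares of counts are of all gene counts.

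Values in every library were given by rule for the 2 highest and the 2 lowest called members of each comparison with at least 10 counts in every library of the higher group, for members of isoform families and for MT members. UQCRC2 and NDUFV2 fall outside it and were chosen after their values were seen. A member that the rule selects is not reported here. The 2 libraries of each group differed beyond sampling noise (mean chi-square 2.85 to 6.29 per gene with at least 20 counts), and all 12 were fitted as separate libraries. This check cannot tell separate cultures from separate preparations of 1 culture. Alternatives were other scalings, DESeq2 1.42.0, other filters on low counts, each guide alone, a replicate block, only the groups compared and leaving out each library. The fit was tested on simulated data. Figures were drawn with matplotlib 3.10.9 in Python 3.11.15.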

Additional observations from a re-analysis of the deposited data

Results flagged for a closer look

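Among 126 sets of 4 sgUTX libraries, 3 had a library set apart from the others by Dixon's criterion, where chance flags about 1 in 20. COX7A2L had 73.0 CPM in replicate 2 of sgUTX_2 SGC0946, with the others between 67.2 and 68.2 CPM. NDUFA11 had 11.03 CPM in replicate 2 of sgUTX_4 SGC0946, with the others between 9.17 and 9.48 CPM. NDUFA6 had 53.2 CPM in replicate 1 of sgUTX_2 SGC0946, with the others between 62.2 and 63.8 CPM.

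The response to SGC0946 differed between sgUTX and sgLuc cells for 23 members by edgeR's test of the difference (sgUTX minus sgLuc, log2). It was negative for NDUFB2 (-0.59), NDUFA6 (-0.39), MT-CYB (-0.37), MT-ATP8 (-0.36) and MT-CO1 (-0.33). In complex I it was positive for NDUFS7 (0.71), NDUFV1 (0.57), NDUFB10 (0.37), NDUFS8 (0.35), NDUFA10 (0.34) and NDUFB11 (0.26). In complexes II and III it was positive for SDHA (0.27), UQCRC2 (0.71), UQCRH (0.40), CYC1 (0.37), UQCRFS1 (0.36) and UQCRC1 (0.32). In complex IV it was positive for NDUFA4L2 (2.504), COX5A (0.36) and COX7A2L (0.23), and in complex V for ATP5MC2 (0.80), ATP5F1D (0.56) and ATP5F1A (0.45). Of these 23, the calls of ATP5MC2, UQCRC2, NDUFV1, ATP5F1D and ATP5F1A held in every fit that left out 1 library.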

How the results depend on the processing

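With library size alone in place of TMM, sgUTX over sgLuc in DMSO had 33 members higher and 21 lower, the nuclear median turned to 0.138 and the MT median was -0.183. The fold changes of MT-CYB (0.056), MT-ND6 (0.11), UQCRC1 (0.0501), SDHA (0.0515), ATP5F1D (0.138), ATP5F1A (0.0643), NDUFV1 (0.0891), UQCRFS1 (0.0105) and COX5A (0.0488) changed sign there, as did that of NDUFB11 (0.000419) in SGC0946. In SGC0946 that scaling gave 34 higher and 14 lower, a nuclear median of 0.148 and an MT median of -0.321. For SGC0946 in sgLuc cells it gave 12 lower and an MT median of 0.561, for the difference of responses 10 lower and -0.231, and for the guides in DMSO 18 higher. The cause was not tested, though the median of all genes moved with this scaling to 0.26 in DMSO and 0.20 in SGC0946.

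With no filter on low counts the MT medians were -0.381 for sgUTX over sgLuc in DMSO and -0.201 for the difference, with 8 lower in the difference, 5 lower for SGC0946 in sgUTX cells, 30 higher between guides in DMSO, and 18 higher and 2 lower between guides in SGC0946. With DESeq2 or a minimum mean of 1 CPM 0 members were lower between guides in SGC0946. With 6 groups 5 were lower for SGC0946 in sgUTX cells. With sgUTX_2 alone the MT median in DMSO was -0.395, 1 member was lower for SGC0946 in sgUTX cells, and 40 were lower for sgUTX over sgLuc in SGC0946. With sgUTX_4 alone 20 were higher in DMSO, 25 higher for SGC0946 in sgLuc cells and 8 lower in the difference, and the MT median for SGC0946 in sgUTX cells was 0.337. With only the groups compared 30 were higher for SGC0946 in sgLuc cells and 1 lower in sgUTX cells, from fewer samples.

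Leaving out 1 library, members called for sgUTX over sgLuc were 11 to 17 higher and 25 to 44 lower in DMSO (MT median -0.528 to -0.364), and 16 to 23 and 18 to 30 in SGC0946 (MT median -0.523 to -0.488). For SGC0946 they were 13 to 23 higher and 1 to 5 lower in sgUTX cells (MT median 0.257 to 0.326), and 12 to 17 and 11 to 25 in sgLuc cells (MT median 0.397 to 0.535). The difference had 6 to 22 higher and 0 to 5 lower (MT median -0.178 to -0.0737). The guides had 2 to 25 higher and 0 to 2 lower in DMSO, and 0 to 10 and 0 to 1 in SGC0946. The nuclear medians ran from -0.223 to -0.0447 in DMSO and from -0.0763 to 0.0305 in SGC0946 for sgUTX over sgLuc.

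With replicate number as a block, 13 members were higher and 37 lower in DMSO and 22 and 26 in SGC0946 for sgUTX over sgLuc, and 15 and 3 in sgUTX and 15 and 20 in sgLuc cells for SGC0946. The numbers did not pair the samples (correlations of same-numbered libraries -0.111 to 0.0731 over 15 pairs of groups). Over all alternatives, single genes kept their side of the threshold in 10012 cases, lost their call in 409 and gained one in 190. In 10 cases the fold change of a called gene turned in direction. Changes of sign in genes not called were not counted. NDUFV2, NDUFA4L2 and UQCRHL have few counts, which limits what can be read from them.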

Other observations

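Complex I subunits encoded in the nucleus took 0.277% ± 0.020 of counts in sgUTX DMSO libraries and 0.244% ± 0.00021 in sgLuc DMSO libraries (SD, n = 4 and 2), and 0.277% ± 0.012 in sgUTX SGC0946 and 0.234% ± 0.0054 in sgLuc SGC0946 libraries. In DMSO, complex II took 0.068% in sgUTX and 0.064% in sgLuc libraries, and complex V 0.423% and 0.388%. Complex III took 0.216% in sgUTX and 0.236% in sgLuc DMSO libraries, and complex IV 0.205% and 0.204%. These shares are not scaled by TMM. With TMM the median log2 fold change of nuclear complex I members was -0.02 for sgUTX over sgLuc in DMSO. On the per-length scale the median level of nuclear members was 96.9 CPM per kb in sgUTX and 102 CPM per kb in sgLuc DMSO libraries, and 95.4 and 91.1 CPM per kb in sgUTX and sgLuc SGC0946 libraries. That of MT members was 418 CPM per kb in sgUTX and 698 CPM per kb in sgLuc DMSO libraries, and 581 and 877 CPM per kb in sgUTX and sgLuc SGC0946 libraries. Such medians can fall on different genes and are not fold changes. The DMSO medians of MT members were those of MT-CYB in sgUTX and MT-ND3 in sgLuc libraries. In sgUTX and sgLuc DMSO libraries MT-CYB had 418 and 487 CPM per kb, and MT-ND3 had 332 and 698 CPM per kb.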
